A study of Rattus norvegicus with 12 samples.

Results

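The expression of 43 rat genes of glucose transport, glycolysis and gluconeogenesis was followed in kidneys of 2 fibrosis models. The genes were taken by name as members of these pathways. By symbol, 42 of them were found among the 22132 entries of the control/adenine table, and 41 among the 32623 entries of the sham/UUO table. Gapdh was not analysed here in either model, and Pfkfb4 was not analysed here in the UUO model. RNA was sequenced from 12 wild-type male Sprague-Dawley rats in 4 groups of 3. Adenine was given by gavage, 220 mg/kg each day over 3 weeks, to the adenine group, and saline to the control group. In the UUO (unilateral ureteral obstruction) group the left ureter was tied and the kidney was taken 2 weeks later, and the sham group had surgery without the ligation. All rats were bought at 8 weeks of age and kept for 7 days before use. The samples are kidney tissue, so each value is an average over all cell types present, and fewer cells of a type cannot be told apart from less RNA per cell. Values are FPKM (fragments scaled by transcript length and library size), and rats are listed in the order of their replicate numbers, which carry no rank.

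Glycolysis splits glucose to pyruvate, and lactate dehydrogenase turns pyruvate into lactate. Gluconeogenesis runs the other way and bypasses the irreversible steps with its own enzymes: pyruvate carboxylase and phosphoenolpyruvate carboxykinase (PEPCK), fructose bisphosphatase and glucose 6-phosphatase. In the kidney the proximal tubule is the site of gluconeogenesis. It takes glucose back from the filtrate through the sodium-glucose cotransporters and lets it out to the blood through facilitated carriers, while later tubule segments depend more on glycolysis.

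The promoters of Pck1 and G6pc are shown because these genes carry the rate-controlling steps of gluconeogenesis, and that of Ldha stands for the glycolytic side. Each window runs from 250 bases before to 50 bases after the RefSeq start on assembly GRCr8, all on the plus strand, at chr3:182348322-182348621 for Pck1, chr10:86807409-86807708 for G6pc (named G6pc1 by RefSeq) and chr1:106507842-106508141 for Ldha. Capitals mark the motifs searched, on both strands: GTTAAT (an HNF1 motif), TTACGTCA (a cyclic AMP response element), TATAAA (the box where TBP binds), CAAAGTCCA (an HNF4 motif) and ACGTG (the core of a hypoxia response element).
Pck1: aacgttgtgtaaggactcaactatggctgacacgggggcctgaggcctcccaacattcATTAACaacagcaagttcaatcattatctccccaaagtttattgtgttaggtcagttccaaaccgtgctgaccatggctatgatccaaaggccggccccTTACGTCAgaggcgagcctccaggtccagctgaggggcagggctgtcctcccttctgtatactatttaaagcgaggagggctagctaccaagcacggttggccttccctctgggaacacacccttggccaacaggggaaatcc
G6pc: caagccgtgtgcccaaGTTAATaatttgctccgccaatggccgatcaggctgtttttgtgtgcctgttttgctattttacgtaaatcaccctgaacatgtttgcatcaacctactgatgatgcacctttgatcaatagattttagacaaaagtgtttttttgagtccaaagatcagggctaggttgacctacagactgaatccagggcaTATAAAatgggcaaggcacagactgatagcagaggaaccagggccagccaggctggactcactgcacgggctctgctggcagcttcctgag
Ldha: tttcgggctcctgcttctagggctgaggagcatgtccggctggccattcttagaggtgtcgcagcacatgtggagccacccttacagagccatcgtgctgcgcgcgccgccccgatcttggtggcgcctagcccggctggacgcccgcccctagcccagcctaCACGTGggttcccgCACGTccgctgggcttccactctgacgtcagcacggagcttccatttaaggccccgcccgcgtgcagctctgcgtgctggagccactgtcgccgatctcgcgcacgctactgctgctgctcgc
Positions are counted from the start of the transcript. In Pck1 the HNF1 motif began at -192, on the minus strand, and the cyclic AMP element at -93. In G6pc the HNF1 motif began at -234 and the TBP box at -41. In Ldha the ACGTG core began at -87 and -86, which are the overlapping readings of the same 6 bases on either strand, and at -73. A window was found for 39 of the 43 members. GTTAAT was in 2 of these 39 (Pck1 and G6pc) against 8.12% of 27457 genes with a window, and TTACGTCA was in 1 (Pck1) against 0.914%. ACGTG was in 17 of 39 members (43.6%) against 20.9% of all genes, with 11 of 20 glycolytic and lactate dehydrogenase genes and 0 of 5 gluconeogenic genes. TATAAA was in 5 of 39 against 15.3%, and CAAAGTCCA in 0 of 39 against 0.444%. These are matches of letters and not measured binding.

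The tissue label could be checked against the tubule marker Lrp2, which lay between 99.9 and 175 FPKM in the control and sham rats. A few libraries stood apart in ways that touch the members. The control rat with replicate number 2 had the lowest Pck1, G6pc, Slc5a2, Pdk4 and Pgam2 of its group. Its summed podocyte markers were also the lowest (29.7 FPKM against 136 and 189). The same held for the distal tubule markers Slc12a3 (12.9 FPKM against 197 and 164) and Calb1 (27.5 FPKM against 407 and 190). Its Slc12a1 (229 FPKM against 135 and 160) and Aqp3 (59.0 FPKM against 31.7 and 30.4) were the highest of the group. The part of tissue composition in the member levels of this rat was not tested. Adenine rat 1 had the lowest levels of proximal tubule genes of its group (Lrp2 6.61 FPKM against 35.6 and 18.4). It had more RNA of adipocyte genes than the rest of its group (Adipoq 128 FPKM against 4.31 and 3.78), as did UUO rat 1 (Adipoq 49.9 FPKM against 4.51 and 5.10). Reference rats carried such RNA as well, with summed adipocyte markers of 43.4 to 47.4 FPKM in control and 39.5 to 58.7 FPKM in sham rats. The sums were 258, 9.27 and 8.04 FPKM in adenine and 78.5, 9.27 and 10.4 FPKM in UUO rats. FPKM summed to 564972 to 582725 in control, 468389 to 487770 in adenine, 619664 to 630244 in sham and 528811 to 539011 in UUO libraries. Sequencing depth cannot be read from FPKM.

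In the adenine model 14 of the 42 tested members rose and 8 fell, against 39.6% and 19.9% of all 15029 tested entries. Of these, 6 were upregulated and 7 downregulated differentially expressed genes (DEGs), that is genes called at an adjusted p under 0.05 that changed by 2 or more on the log2 scale in either direction, against 10.7% and 5.03% of all entries. After UUO 12 of 38 tested members rose and 16 fell, against 56.1% and 14.4% of 15043 entries, and 4 were upregulated and 7 downregulated DEGs, against 13.2% and 4.21%. Without control rat 2, 14 members fell in the adenine model, and the share of all entries that fell in that fit was not counted. Over the members, the median log2 fold change was 0.20 with adenine and -0.19 after UUO, and over all tested entries it was 0.30 and 0.62. The calls were therefore repeated under 3 other scalings of the libraries (median of ratios, quantile normalization and equal sums), of which the first brought the median entry to 0.01 and 0.03. These gave 12, 16 and 17 rises with 14, 10 and 7 falls in the adenine model, and 6, 7 and 14 rises with 20, 19 and 16 falls in the UUO model. Of all entries, 29.1% rose and 28.4% fell with adenine under median of ratios, and 28% and 28% after UUO. These shares were not counted for quantile normalization or for equal sums alone, so those member counts have no background here. With equal sums the median entry was at 0.56 with adenine and 0.83 after UUO. Called the same way in the deposited values and in all 3 scalings were 12 rises and 7 falls among the members of the adenine model, against 25.4% and 14.3% of all entries, and 5 rises and 16 falls in the UUO model, against 24.4% and 11.6%. Hk2, Hk3, Aldoc and Slc2a2 rose in both models under every scaling, and Pklr, Fbp1, Pc, Khk, Me1, Slc2a5 and Slc37a4 fell in both. All 3 rats of the model lay above all 3 reference rats for 45% of entries in the adenine and 60% in the UUO model, and below them for 23% and 15.7%, which is the background for the statements on overlap that follow. An exact permutation test of 3 against 3 rats cannot go below a two-sided p of 0.1 for a single value, so p-values are those of the limma fit over all entries, and ± after a log2 fold change is its standard error.

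**Figure D1:**
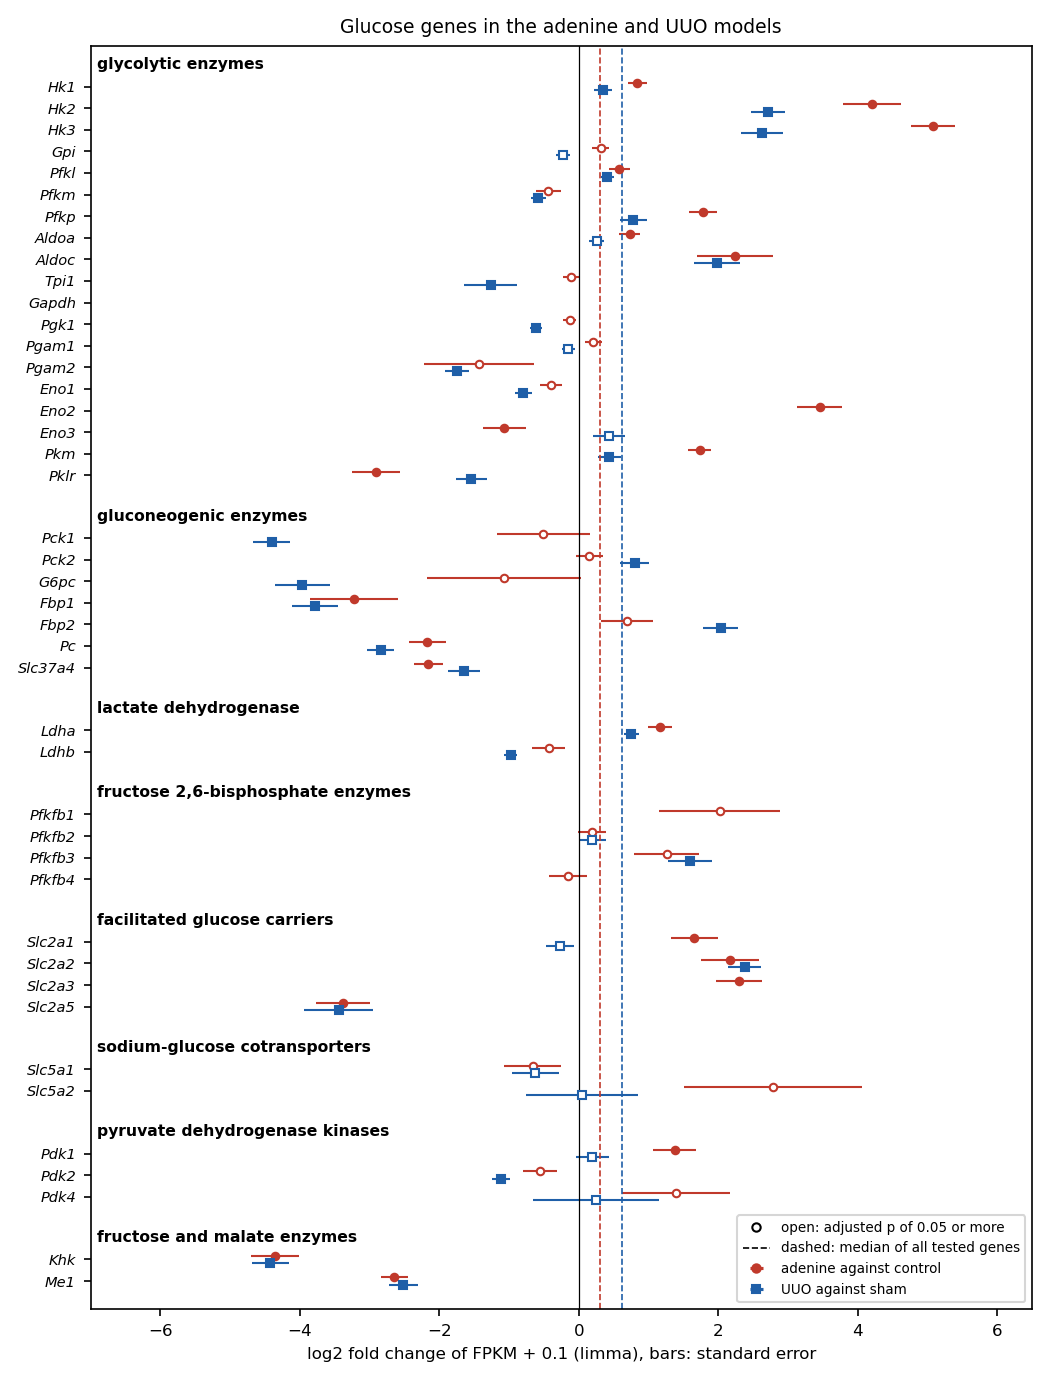
Log2 fold changes of the tested members (42 in the adenine and 38 in the UUO model) by role (x axis, fitted on log2 of FPKM + 0.1, bars are standard errors), circles for adenine against control and squares for UUO against sham, filled where the adjusted p was under 0.05. The dashed lines are the medians of all tested entries (0.30 and 0.62), and Pklr, Fbp1, Pc, Khk, Me1, Slc2a5 and Slc37a4 lie far to the left of them in both models.

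Of the 7 gluconeogenic genes, 5 fell and 2 rose in the UUO model (median log2 fold change -2.84), where 14.4% of all entries fell and 56.1% rose. With adenine 3 fell and the other 4 did not pass the test (median -1.07), where 19.9% of all entries fell and 39.6% rose. That median depended on single rats, and was -2.11 without control rat 2, -1.85 without adenine rat 2, -0.37 without adenine rat 1 and -0.017 without control rat 1 and adenine rat 1. Pck1, the cytosolic PEPCK, had 1459, 1184 and 839 FPKM in the sham rats and 38.2, 65.6 and 60.7 FPKM in the UUO rats (log2 fold change -4.40 ± 0.27, adjusted p = 3e-05). In the control rats it had 914, 181 and 1065 FPKM and in the adenine rats 326, 553 and 341 FPKM. The UUO and sham groups were far apart, whereas control rat 2 lay below all adenine rats and the groups overlapped (log2 fold change -0.51 ± 0.67, adjusted p = 0.536). Without control rat 2 the log2 fold change of Pck1 in the adenine model was -1.32 with an adjusted p of 0.0082. G6pc, the catalytic subunit of glucose 6-phosphatase that releases free glucose, had 101, 92.1 and 68.1 FPKM in sham and 2.81, 8.75 and 6.37 FPKM in UUO rats (log2 fold change -3.96 ± 0.40, adjusted p = 0.000173). In the other model it had 89.7, 8.73 and 67.2 FPKM in control and 5.26, 53 and 20.4 FPKM in adenine rats, again with control rat 2 inside the range of the adenine rats (log2 fold change -1.07 ± 1.10, adjusted p = 0.433). With each rat left out in turn this log2 fold change ranged from -2.11 without control rat 2 to -0.19 without adenine rat 1, and it was 0.43 without control rat 1 and adenine rat 1 together.

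Fbp1, the fructose bisphosphatase of liver and kidney, fell in both models. It had 498, 325 and 323 FPKM in control and 15.9, 104 and 38.8 FPKM in adenine rats (log2 fold change -3.22 ± 0.63, adjusted p = 0.00454), and 544, 781 and 623 FPKM in sham and 28.7, 73 and 48.6 FPKM in UUO rats (log2 fold change -3.78 ± 0.33, adjusted p = 0.0001). No rat of either model reached the lowest reference rat, and within the adenine group Fbp1 was lowest in rat 1 and highest in rat 2, the order of Lrp2. Pc, the pyruvate carboxylase that starts the pathway in the mitochondrion, had 92.7, 53.9 and 65.3 FPKM in control and 19.4, 16.1 and 11.1 FPKM in adenine rats (log2 fold change -2.17 ± 0.27, adjusted p = 0.000628). After UUO, Pc went from 81.7, 106 and 85.1 FPKM to 10.5, 16.4 and 11.4 FPKM (log2 fold change -2.84 ± 0.19, adjusted p = 3.93e-05). Slc37a4, the carrier that brings glucose 6-phosphate to the phosphatase inside the endoplasmic reticulum, had 109, 73 and 69.5 FPKM in control and 16.1, 22.2 and 17.4 FPKM in adenine rats (log2 fold change -2.16 ± 0.21, adjusted p = 0.000249), and 47.9, 86.6 and 75 FPKM in sham and 20.4, 25.2 and 19.4 FPKM in UUO rats (log2 fold change -1.65 ± 0.23, adjusted p = 0.000699). For Pc and Slc37a4 the groups were separate in both models. Within the adenine group Pck1, G6pc and Slc37a4 also had the order of Lrp2, whereas Pc was highest in rat 1 and Fbp2 and Pck2 had other orders. Such orders of 3 rats were not tested.

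The other 2 genes of the group, Fbp2 and Pck2, were the ones that rose in the UUO model. Fbp2, the muscle form of fructose bisphosphatase, was a low gene with 0.512, 0.737 and 0.608 FPKM in sham and 2.27, 3.58 and 2.77 FPKM in UUO rats, where it rose (log2 fold change 2.04 ± 0.25, adjusted p = 0.000433). With adenine it had 0.613, 0.849 and 0.707 FPKM in control and 0.69, 1.42 and 1.83 FPKM in adenine rats, with overlap (log2 fold change 0.69 ± 0.37, adjusted p = 0.147). Without adenine rat 1 it was called there too (1.07, adjusted p = 0.0225). Of 4 skeletal muscle markers, Ckm stayed at or below 0.468 FPKM in all 12 rats, Acta1 reached 1.33 FPKM in UUO rat 1, and Myh4 was at most 0.0254 FPKM in the adenine model and not analysed here in the other. The fourth, Tnnt3, rose on the deposited scale with adenine (1.54, adjusted p = 0.0320) and after UUO (1.81, adjusted p = 0.00420), and their part in the level of Fbp2 was not tested. Pck2, the mitochondrial PEPCK, rose in the UUO model on the deposited scale (log2 fold change 0.80 ± 0.21, adjusted p = 0.0111) but was not called under every scaling, and it did not pass the test in the adenine model (0.15, adjusted p = 0.527). Its share of summed PEPCK FPKM went from a mean of 1.13% in sham to 30.1% in UUO rats.

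**Figure D2:**
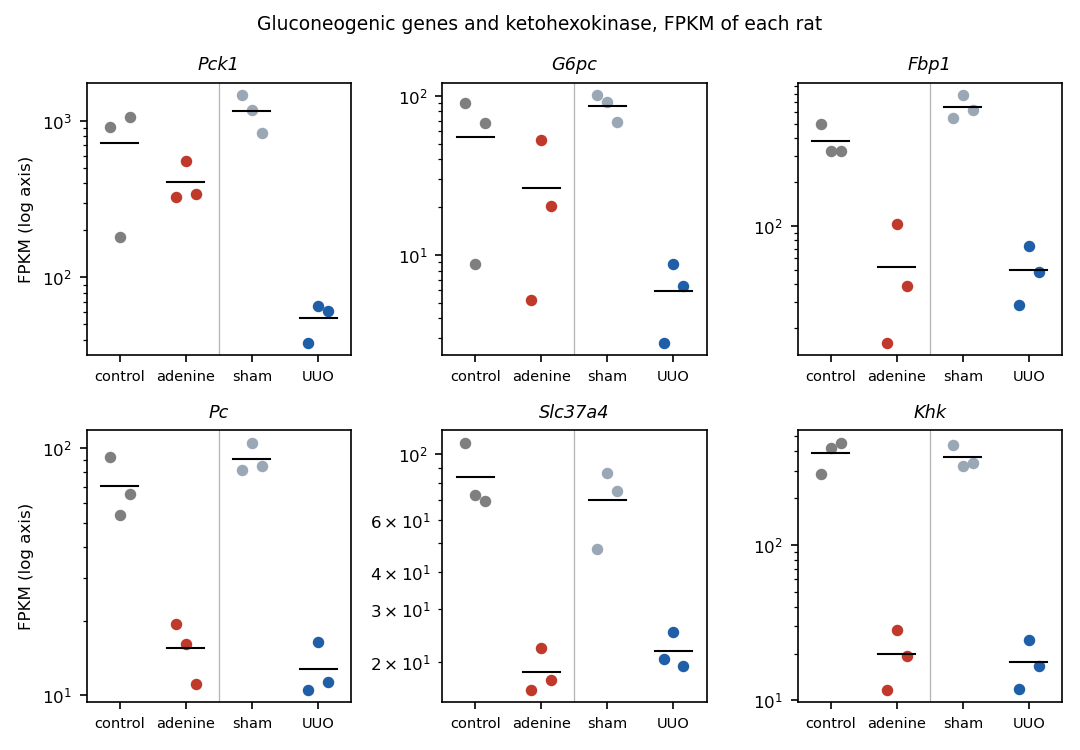
FPKM of each rat (points, log axis, y) for Pck1, G6pc, Fbp1, Pc, Slc37a4 and Khk in all 4 groups (x), with a line at the group mean. UUO rats lie below all sham rats in every panel, and the adenine rats overlap the controls for Pck1 and G6pc, where control rat 2 is low.

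Most markers of the proximal tubule fell in the same kidneys. With adenine 4 of 6 markers fell (Lrp2, Slc34a1, Slc22a6 and Aqp1) and 1 rose (Slc5a12), and their summed FPKM went from 1428 to 2001 in control rats to 143 to 388 in adenine rats. After UUO 4 of 6 fell and the sum went from 1869 to 2105 in sham to 264 to 481 in UUO rats. Their part in the lower gluconeogenic levels was not tested.

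Khk, the ketohexokinase that commits fructose to breakdown, and Me1, the malic enzyme that makes NADPH, fell in both models. Khk had 288, 423 and 456 FPKM in control and 11.7, 28.4 and 19.2 FPKM in adenine rats (log2 fold change -4.35 ± 0.34, adjusted p = 0.000111), and 438, 323 and 338 FPKM in sham and 11.8, 24.4 and 16.7 FPKM in UUO rats (log2 fold change -4.42 ± 0.26, adjusted p = 2.76e-05). It had the lowest fitted change of the tested members in both models. Me1 had 80.4, 66.5 and 105 FPKM in control and 15.3, 12.7 and 11.6 FPKM in adenine rats (log2 fold change -2.65 ± 0.19, adjusted p = 8.85e-05), and 126, 88.4 and 72.3 FPKM in sham and 15.2, 14.8 and 18.8 FPKM in UUO rats (log2 fold change -2.52 ± 0.21, adjusted p = 8.71e-05). Neither gene overlapped between groups in either model.

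The glycolytic enzymes did not move as 1 block. In the adenine model 9 of 18 tested rose and 2 fell, against 39.6% and 19.9% of all entries, with a median log2 fold change of 0.45. Under every scaling 7 rises and 1 fall held, against 25.4% and 14.3% of all entries. In the UUO model 7 of 17 rose and 6 fell, against 56.1% and 14.4%. Their median was 0.26 on the deposited scale and turned to -0.35 with median-of-ratios scaling. Under every scaling 3 rises and 6 falls held, against 24.4% and 11.6% of all entries. The 9 rises of the adenine model took in all 3 hexokinases, Pfkl, Pfkp, Aldoa, Aldoc, Eno2 and Pkm, and the 6 falls of the UUO model were of Pfkm, Tpi1, Pgk1, Pgam2, Eno1 and Pklr. Markers of other cell types moved in the same kidneys. The 4 fibroblast and myofibroblast markers all rose in both models, and their summed FPKM went from 47.8 to 63.2 in control to 408 to 522 in adenine rats, and from 32.2 to 74.2 in sham to 620 to 1747 in UUO rats. Of the 4 markers of the loop and distal tubule 2 fell with adenine and 4 after UUO, where their sum went from 2496 to 3135 in sham to 109 to 250 in UUO rats, and of 5 collecting duct markers 4 and 5 fell. The 3 urothelium markers rose after UUO. Their part in the levels of the glycolytic enzymes was not tested.

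At the hexokinase step, which traps glucose in the cell, Hk2 and Hk3 rose in both models. Hk2, the form of muscle and fat that is switched on in many growing cells, had 1.64, 0.757 and 0.561 FPKM in control and 25.3, 12.4 and 19.4 FPKM in adenine rats (log2 fold change 4.21 ± 0.42, adjusted p = 0.000267), and 0.93, 1.41 and 1.16 FPKM in sham and 10.9, 6.86 and 7.17 FPKM in UUO rats (log2 fold change 2.71 ± 0.25, adjusted p = 0.000115). Hk3, the form of myeloid blood cells, had 0.588, 0.64 and 1.15 FPKM in control and 40.9, 22.3 and 26.7 FPKM in adenine rats (log2 fold change 5.08 ± 0.31, adjusted p = 5.5e-05), and 0.899, 0.613 and 0.486 FPKM in sham and 5.61, 5.02 and 3.29 FPKM in UUO rats (log2 fold change 2.63 ± 0.30, adjusted p = 0.000292). For both genes the lowest rat of the model was well above the highest reference rat. Hk1, the widespread form, had 18.9, 18.7 and 20.5 FPKM in control and 41.4, 33.2 and 30.7 FPKM in adenine rats (log2 fold change 0.84 ± 0.13, adjusted p = 0.00193). Hk1 had 38.5, 38.6 and 28.8 FPKM in sham and 44.9, 43.7 and 45.3 FPKM in UUO rats, a small rise on the deposited scale (log2 fold change 0.35 ± 0.13, adjusted p = 0.0435) whose sign turned with median-of-ratios scaling (-0.25). This call was lost without sham rat 3 (adjusted p = 0.0680) or any of the UUO rats (0.0830 to 0.10). Hk1 held a mean 91.6% of the summed hexokinase FPKM in control and 42.4% in adenine rats, where Hk3 held 35.2% and Hk2 22.4%. In UUO rats Hk1 still held 77.7%, against 95.0% in sham rats.

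Leukocyte markers moved with Hk3. With adenine all 5 tested rose and their summed FPKM went from 13.6 to 17.9 in control to 417 to 698 in adenine rats, and in the UUO model all 6 rose, from 15.8 to 21.3 in sham to 175 to 206 in UUO rats. Their part in the rise of Hk3 was not tested.

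Further down, Pfkp and Aldoc were the phosphofructokinase and aldolase genes with the largest rise in the adenine model. Pfkp, the platelet form of phosphofructokinase, the main control point of glycolysis, rose in the adenine model (log2 fold change 1.78 ± 0.20, adjusted p = 0.000473) and, on the deposited scale, in the UUO model (log2 fold change 0.78 ± 0.19, adjusted p = 0.0088). The muscle form Pfkm did not pass the test in the adenine model (-0.43, adjusted p = 0.0805; without control rat 2, -0.63 and 0.00793) and fell in the UUO model (log2 fold change -0.58 ± 0.11, adjusted p = 0.00312). With adenine Pfkm fell under median of ratios (-0.73, adjusted p = 0.0130) and quantile normalization (-0.60, adjusted p = 0.0258). The difference of its log2 fold changes between the models was not called (adjusted p = 0.649). The liver form Pfkl rose in the adenine model (0.58, adjusted p = 0.0134) and in the UUO model (0.41, adjusted p = 0.00605), in neither under every scaling, and in the UUO model its sign turned with median-of-ratios scaling (-0.19). Without control rat 1 and adenine rat 1 Pfkl was no longer called with adenine (0.47, adjusted p = 0.0909). Aldoc, the brain form of aldolase, had 0.179, 1.13 and 0.498 FPKM in control and 3.34, 1.87 and 3.11 FPKM in adenine rats (log2 fold change 2.24 ± 0.55, adjusted p = 0.0116), and 0.484, 0.779 and 0.537 FPKM in sham and 3.35, 3.14 and 1.7 FPKM in UUO rats (log2 fold change 1.98 ± 0.33, adjusted p = 0.0016). It stayed below 3.5 FPKM throughout, and without control rat 1 and adenine rat 1 its adjusted p in the adenine model was 0.050. Aldoa, the widespread and abundant form, rose in the adenine model (0.73, adjusted p = 0.00634), not under every scaling, and did not pass the test in the UUO model (0.26, adjusted p = 0.0678), where it was called without sham rat 2 (0.32, adjusted p = 0.0372). Of the summed phosphofructokinase FPKM, Pfkp held a mean 17.0% in control and 38.0% in adenine rats, and 21.2% in sham and 31.6% in UUO rats, and Pfkm held 38.1% and 18.4%, and 39.9% and 23.3%.

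In the adenine model Gpi (0.32), Tpi1 (-0.11), Pgk1 (-0.13), Pgam1 (0.21), Pgam2 (-1.43) and Eno1 (-0.40) had log2 fold changes that did not pass the test. These are the isomerases, mutases and kinase of the middle steps and enolase. Leaving out control rat 2 brought Pgam2 (-2.40) and Eno1 (-0.51) past the threshold, and leaving out adenine rat 2 did so for Gpi (0.40). The scaling also moved these calls, as Tpi1 (-0.41), Pgk1 (-0.42) and Eno1 (-0.69) fell with median of ratios and Gpi (0.48) and Pgam1 (0.39) rose with quantile normalization. Pgk1, the phosphoglycerate kinase that makes the first ATP of the pathway, had 228, 206 and 231 FPKM in control and 205, 199.6 and 202 FPKM in adenine rats (log2 fold change -0.13 ± 0.10, adjusted p = 0.289), and 299, 333 and 301 FPKM in sham and 199, 209 and 201 FPKM in UUO rats, where it fell (log2 fold change -0.61 ± 0.08, adjusted p = 0.000639). With obstruction, Tpi1 (-1.26), Pgam2 (-1.74) and Eno1 (-0.79) fell too, under every scaling, while Gpi (-0.22) and Pgam1 (-0.15) did not pass the test (Gpi was called without sham rat 3, at -0.30, and both fell with median of ratios, at -0.82 and -0.75). The fall of Tpi1, the triose phosphate isomerase, rested in part on UUO rat 2, with 207, 234 and 196 FPKM in sham and 134, 45.4 and 112 FPKM in UUO rats. Without that rat the log2 fold change was -0.78, and without sham rat 1 or 2 the adjusted p was 0.0506 or 0.0660. Eno2, the enolase of neurons, had 1.16, 0.832 and 1.71 FPKM in control and 19, 9.9 and 14.6 FPKM in adenine rats and rose (log2 fold change 3.45 ± 0.32, adjusted p = 0.000222), without overlap. In the other model Eno2 was listed at the lowest value of 0.0001 in 2 sham and 2 UUO rats, at 1.06 FPKM in sham rat 1 and at 3.67 FPKM in UUO rat 3, and it was not tested. The neuron markers Snap25 and Syt1 were below 0.57 FPKM in all rats, and Tubb3 rose in both models. Eno3, the muscle enolase, fell in the adenine model (log2 fold change -1.06 ± 0.30, adjusted p = 0.0213), not under every scaling nor without adenine rat 2 (-0.91, adjusted p = 0.0658). It did not pass the test in the UUO model (0.44, adjusted p = 0.123) and did without sham rat 1 (0.64, adjusted p = 0.0319).

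At the last step Pklr fell in both models and Pkm rose in the adenine model. Pklr, the pyruvate kinase of liver, kidney and red cells, had 18.7, 28 and 32 FPKM in control and 1.98, 4.04 and 4.56 FPKM in adenine rats (log2 fold change -2.91 ± 0.35, adjusted p = 0.000569), and 31.7, 17.9 and 18.8 FPKM in sham and 7.02, 7.32 and 8.2 FPKM in UUO rats (log2 fold change -1.54 ± 0.23, adjusted p = 0.000907). Pkm, the form of muscle and of most dividing cells, had 85.5, 77.4 and 86.8 FPKM in control and 355, 237 and 252 FPKM in adenine rats (log2 fold change 1.73 ± 0.17, adjusted p = 0.000256). Every adenine rat was far above every control rat. Pkm had 106, 131 and 105 FPKM in sham and 167, 178 and 123 FPKM in UUO rats, with overlap (log2 fold change 0.44 ± 0.17, adjusted p = 0.0489), and its sign turned with median-of-ratios scaling (-0.16). The call was lost without sham rat 1, sham rat 3, UUO rat 1 or UUO rat 2 (adjusted p = 0.121 to 0.141). The share of Pkm in the summed pyruvate kinase FPKM went from a mean of 76.2% to 98.7% in the adenine and from 83.3% to 95.3% in the UUO model.

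The Ldha gene took a larger share of lactate dehydrogenase transcripts in both models. Ldha, the subunit of muscle that favours lactate, had 113, 142 and 134 FPKM in control and 341, 234 and 307 FPKM in adenine rats and rose (log2 fold change 1.17 ± 0.17, adjusted p = 0.00134). Ldha had 161, 156 and 136 FPKM in sham and 285, 248 and 232 FPKM in UUO rats and rose on the deposited scale (log2 fold change 0.76 ± 0.11, adjusted p = 0.00099), not under every scaling. Ldhb, the subunit of heart and kidney, had 276, 214 and 258 FPKM in control and 185, 249.8 and 134 FPKM in adenine rats, with overlap (log2 fold change -0.43 ± 0.24, adjusted p = 0.155), and 391, 412 and 359.6 FPKM in sham and 179.8, 208 and 203 FPKM in UUO rats, where it fell (log2 fold change -0.98 ± 0.10, adjusted p = 0.000176). Without adenine rat 2, Ldhb was called as fallen in the adenine model (-0.65, adjusted p = 0.0335). With median of ratios Ldhb fell there as well (-0.73, adjusted p = 0.0387). The difference of its log2 fold changes between the models was not called (adjusted p = 0.128). As a share within a library, which a scaling factor does not change, Ldha held 34.4% ± 5.47 (SD, n = 3) of the summed FPKM of both genes in control and 60.9% ± 11.2 in adenine rats, and 28.0% in sham and 56.4% in UUO rats, without overlap in either model.

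**Figure D3:**
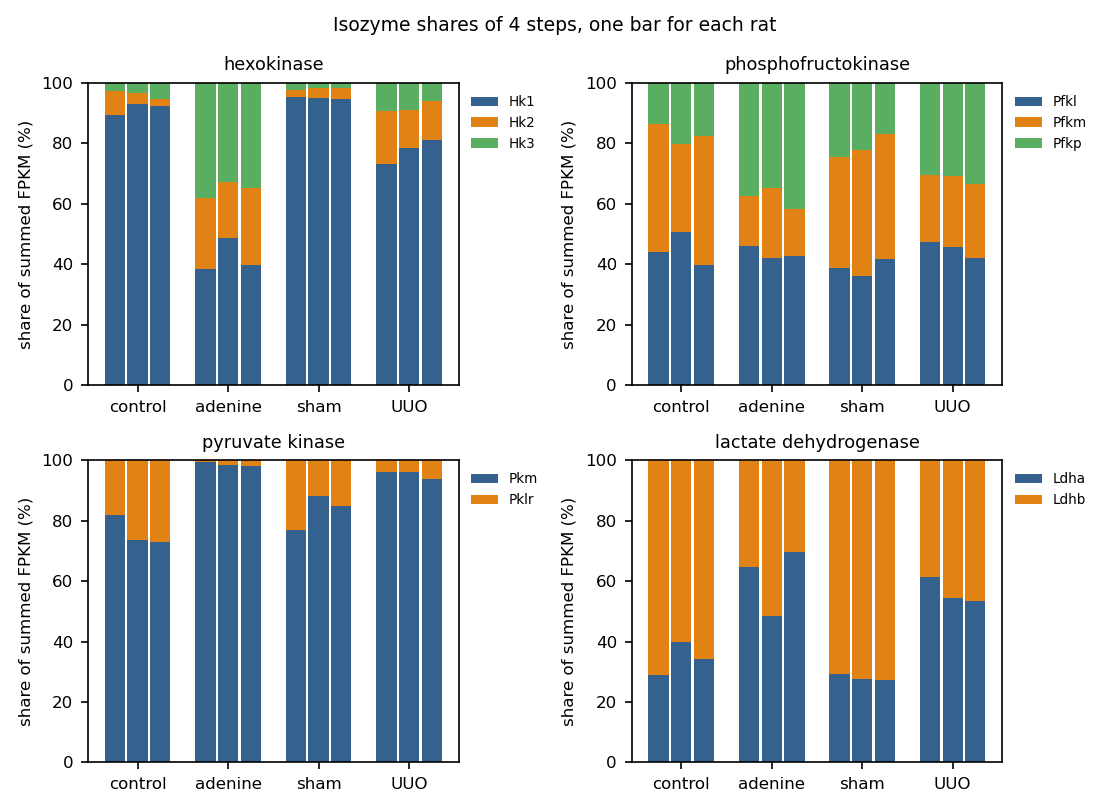
Share of each isozyme gene in the summed FPKM of its step (y, percent), with 1 stacked bar for each rat and 4 groups of 3 rats (x), for hexokinase, phosphofructokinase, pyruvate kinase and lactate dehydrogenase. Adenine and UUO rats have a smaller share of Hk1, Pfkm, Pklr and Ldhb than their reference rats, and Hk1 holds a mean 42.4% of hexokinase in adenine and 77.7% in UUO rats.

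Set against each other within a library, transcripts of glycolytic genes were higher relative to those of gluconeogenic genes at opposed steps, without overlap at every step in the UUO model only. The summed FPKM of Pfkl, Pfkm and Pfkp over that of Fbp1 and Fbp2 was 0.110, 0.167 and 0.177 in control and 5.61, 0.702 and 2.23 in adenine rats. The same ratio was 0.145, 0.112 and 0.114 in sham and 3.02, 1.16 and 1.73 in UUO rats. Pyruvate kinase over Pc was 1.12 to 1.96 in control and 14.9 to 23.1 in adenine rats, and 1.41 to 1.69 in sham and 11.3 to 16.6 in UUO rats. These ratios did not overlap between groups in either model. Pyruvate kinase over PEPCK was 0.112, 0.546 and 0.110 in control and 1.05, 0.422 and 0.725 in adenine rats, and hexokinase over G6pc was 0.236, 2.31 and 0.330 in control and 20.5, 1.28 and 3.77 in adenine rats. Both overlapped in the adenine model, where control rat 2 lay inside the range of the adenine rats, and neither overlapped in the UUO model. These are ratios of transcripts and not of enzyme activity, and the part of cell composition in them was not tested.

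**Figure D4:**
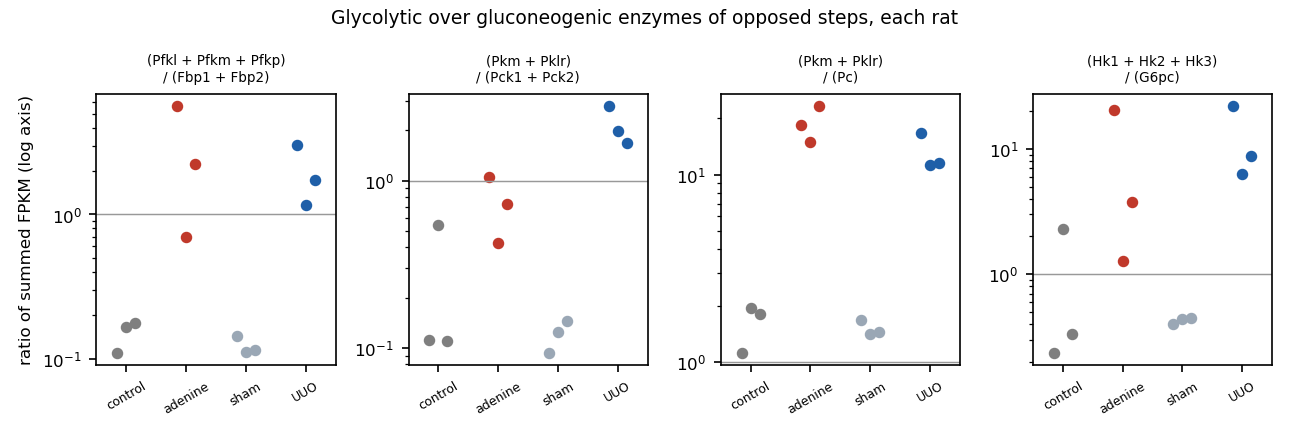
Ratio of summed FPKM of glycolytic over gluconeogenic genes at 4 opposed steps (y, log axis, a grey line at 1) for each rat of the 4 groups (x). The ratio of phosphofructokinase to fructose bisphosphatase is 0.110 to 0.177 in control and 0.702 to 5.61 in adenine rats, and control rat 2 is the high control point for the ratios over PEPCK and over G6pc.

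Among the regulators of the flux, Pfkfb3 rose in the UUO model and Pdk1 in the adenine model on the deposited scale. The 4 Pfkfb genes make and remove fructose 2,6-bisphosphate, the activator of phosphofructokinase. Pfkfb3, the form with the highest kinase activity, had 6.6, 8.16 and 5.27 FPKM in control and 34.7, 9.97 and 11.5 FPKM in adenine rats (log2 fold change 1.26 ± 0.47, adjusted p = 0.054). Adenine rat 1, the highest of its group in adipocyte markers, was far above the others. Without that rat Pfkfb3 passed the test at a smaller size (0.70, adjusted p = 0.0383), and without adenine rat 2 at 1.59 (adjusted p = 0.0331). With equal sums Pfkfb3 was called in the adenine model as well (1.53, adjusted p = 0.0219). It rose in the UUO model, from 2.93, 2.57 and 1.3 FPKM to 7.44, 7.47 and 5.4 FPKM on the deposited scale (log2 fold change 1.60 ± 0.32, adjusted p = 0.00367), not with quantile normalization (0.84, adjusted p = 0.0784). The difference of its log2 fold changes, adenine minus UUO, was not called (-0.34, adjusted p = 0.689). Pfkfb1 was at most 3.51 FPKM, again in adenine rat 1 (log2 fold change 2.02 ± 0.87, adjusted p = 0.0835), and was not tested in the UUO model. Pfkfb2 (0.19 and 0.20) and, in the adenine model, Pfkfb4 (-0.15) did not pass the test. With quantile normalization Pfkfb2 turned in sign after UUO and was called as fallen (-0.59, adjusted p = 0.0226). Pfkfb4 in the adenine model was called without control rat 2 (-0.45, adjusted p = 0.0490). The summed adipocyte markers ranged from 43.4 to 47.4 FPKM in control and from 8.04 to 258 FPKM in adenine rats, and their part in the values of Pfkfb3 and Pfkfb1 was not tested.

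Of the pyruvate dehydrogenase kinases, which close the entry of pyruvate into the citric acid cycle, Pdk1 rose in the adenine model, from 5.38, 3.28 and 3.91 FPKM to 16.4, 7.88 and 9.78 FPKM (log2 fold change 1.38 ± 0.31, adjusted p = 0.00796). It did not pass the test in the UUO model (0.20, adjusted p = 0.483). Pdk2, the most abundant of the 3, did not pass the test in the adenine model (-0.55, adjusted p = 0.0927; without control rat 2, -0.77 and 0.0280) and fell in the UUO model, from 97, 120.2 and 104 FPKM to 43.9, 56.6 and 47.9 FPKM (log2 fold change -1.11 ± 0.13, adjusted p = 0.000299). With median of ratios Pdk2 fell with adenine too (-0.85, adjusted p = 0.0203). The difference of its log2 fold changes between the models was not called (adjusted p = 0.148). Pdk4, the form raised by fasting, varied widely within groups, with 33.9, 2.48 and 4.26 FPKM in the sham rats, and passed the test in neither model (1.39 and 0.25). With adenine its log2 fold change ranged from 0.58 without control rat 2 to 1.83 without control rat 3. Without sham rat 1 it was called in the UUO model (1.36, adjusted p = 0.0172).

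Of the 4 facilitated carriers, 3 rose and 1 fell in the adenine model, against 39.6% and 19.9% of all entries. In the UUO model 1 rose and 1 fell of 3 tested, against 56.1% and 14.4% of all entries. Slc2a2 (GLUT2), the basolateral carrier of the proximal tubule, had 8.33, 4.66 and 5.82 FPKM in control and 14.6, 43.5 and 33.7 FPKM in adenine rats and rose (log2 fold change 2.17 ± 0.42, adjusted p = 0.00442), and 10.2, 10.7 and 17.5 FPKM in sham and 52, 69.4 and 76.2 FPKM in UUO rats (log2 fold change 2.38 ± 0.24, adjusted p = 0.000179). It rose while 4 of 6 proximal tubule markers fell. Slc2a5 (GLUT5), the fructose carrier of the brush border, went the other way, with 19.6, 31.3 and 38.2 FPKM in control and 1.64, 2.68 and 4.25 FPKM in adenine rats (log2 fold change -3.38 ± 0.38, adjusted p = 0.000453), and 44.6, 25.3 and 22.1 FPKM in sham and 1.2, 3.14 and 4.58 FPKM in UUO rats (log2 fold change -3.44 ± 0.50, adjusted p = 0.000847). Neither gene overlapped between groups. Slc2a1 (GLUT1), the widespread carrier, had 14.6, 16.5 and 14.3 FPKM in control and 77.1, 28.2 and 50.4 FPKM in adenine rats and rose (log2 fold change 1.66 ± 0.34, adjusted p = 0.0055), with rat 1 highest. Without control rat 1 and adenine rat 1, the rats with Plin1 above 10 FPKM, it was still called (1.29, adjusted p = 0.0238). It did not pass the test in the UUO model, with 23.5, 26.2 and 19.1 FPKM in sham and 23.2, 20.4 and 14.2 FPKM in UUO rats (log2 fold change -0.27 ± 0.21, adjusted p = 0.277), although it fell there with median-of-ratios scaling (-0.87, adjusted p = 0.0163). Slc2a3 (GLUT3), the carrier of neurons and white blood cells, was low but rose in the adenine model, from 0.317, 0.247 and 0.132 FPKM to 1.38, 1.92 and 1.23 FPKM (log2 fold change 2.29 ± 0.33, adjusted p = 0.00121). In the sham rats Slc2a3 was listed at 0.0001 in all 3, and in the UUO rats it had 5.59, 2.22 and 0.291 FPKM, and it was not tested. Slc2a5 held a mean 56.9% of the summed FPKM of the 4 carriers in control and 3.33% in adenine rats, and 45.1% in sham and 3.19% in UUO rats.

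The sodium-glucose cotransporters passed the test in neither model on the deposited scale. Slc5a2 (SGLT2), which reabsorbs most of the filtered glucose in the early proximal tubule, had 13.7, 0.232 and 2.47 FPKM in control and 7.77, 26.6 and 18.3 FPKM in adenine rats (log2 fold change 2.78 ± 1.27, adjusted p = 0.1). In the other model it had 19.6, 3.06 and 29.9 FPKM in sham and 10.9, 18.9 and 9.83 FPKM in UUO rats (log2 fold change 0.05 ± 0.81, adjusted p = 0.961). Control rat 2 and sham rat 2 were far below the rest of their groups, and without control rat 1 the change in the adenine model was called (4.08, adjusted p = 0.0150), whereas without control rat 2 it was 1.39. Slc5a1 (SGLT1), of the later proximal tubule, had log2 fold changes of -0.66 (adjusted p = 0.206) and -0.62 (adjusted p = 0.136), and with median of ratios it fell after UUO (-1.22, adjusted p = 0.0177). With quantile normalization it fell both with adenine (-1.10, adjusted p = 0.0454) and after UUO (-1.27, adjusted p = 0.0129).

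**Figure D5:**
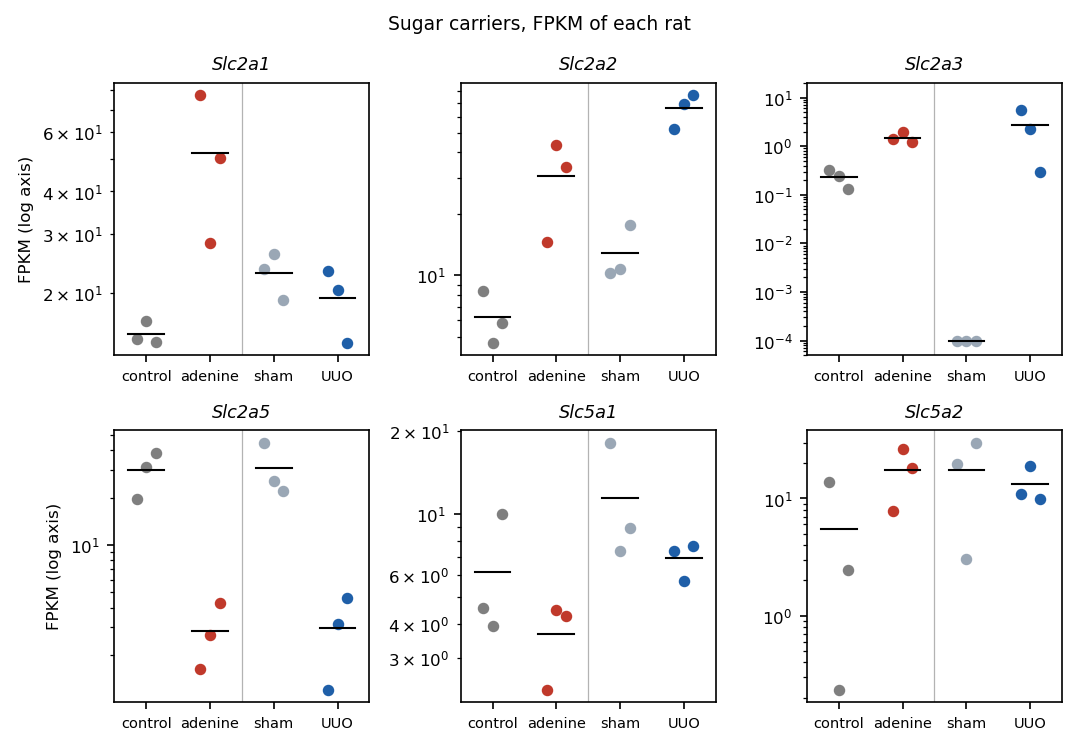
FPKM of each rat (points, log axis, y) for 6 sugar carriers in all 4 groups (x), with a line at the group mean. Slc2a2 is higher and Slc2a5 lower in all rats of both models than in their reference rats, Slc2a1 is higher in adenine rats, and Slc5a2 is low in control rat 2 and sham rat 2.

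The models were then compared by the difference of their log2 fold changes, adenine minus UUO, tested over 13486 genes. Of the 38 members tested in both, 10 differed (adjusted p under 0.05 and an absolute difference of at least 1). The change was higher in the adenine model for 7 (Hk2, Hk3, Tpi1, Pkm, Pck1, Slc2a1 and Pdk1), against 3.37% of all genes, and higher in the UUO model for 3 (Eno3, Pklr and Fbp2), against 9.44%. The widest difference was that of Pck1 (3.90, adjusted p = 0.00236), which fell in the UUO model. Slc2a1 (1.93, adjusted p = 0.00411), Hk3 (2.45, adjusted p = 0.00183) and Pkm (1.3, adjusted p = 0.00222) differed as well, and each of them rose in the adenine model. The tables were normalized separately and the median entry changed by 0.30 in 1 model and 0.62 in the other, and Hk3, Eno3, Pkm, Pck1 and Slc2a1 differed under all 22 settings tried.

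Among 68 other genes of these and neighbouring pathways, 17 rose and 21 fell of 58 tested in the adenine model, and 20 rose and 25 fell of 58 in the UUO model, against 39.6% and 19.9%, and 56.1% and 14.4%, of all entries. Among the DEGs that fell in both models were the D-lactate dehydrogenase Ldhd (-3.32 and -2.98), the mitochondrial pyruvate carrier subunit Mpc2 (-2.91 and -2.09), the sugar cotransporter Slc5a9 (-3.94 and -3.83), and Tkfc (-3.69 and -3.29) and Glyctk (-3.0 and -2.85), which handle the glyceraldehyde and glycerate of fructose breakdown. The DEGs that rose in both were the carrier Slc2a10 (2.20 and 2.32, the latter not under every scaling) and Myc (2.86 and 3.01), a transcription factor of growth. Slc2a5, Khk and Tkfc, which take up and phosphorylate fructose and phosphorylate a product of its breakdown, thus each fell in both models.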

How the data were processed

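Kidney RNA of 12 rats in 4 groups of 3 was analysed, with groups taken from the labels. The authors deposited FPKM values per gene in separate tables for each model. By the submitters' processing notes, cutadapt 1.9, HISAT2 2.0.4, StringTie 1.3.4d, DESeq2 and edgeR were used. The genome build and annotation are not given in the sources used here. Poly(A) RNA was sequenced, and FPKM keeps no counts, so the depth is unknown and precision is the spread between rats. Ratios of low values shared by at most 2.93% of low genes did not give relative depth.

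Each table was fitted separately with limma 3.58.1 (lmFit, eBayes with a trend) in R 4.3.3 on log2(FPKM + 0.1), for entries that reached 0.5 FPKM in 3 or more of the 6 samples. The p-values were adjusted by Benjamini-Hochberg over all tested entries. Fold changes on this scale understate those of low genes. "Rose" and "fell" mean an adjusted p under 0.05. The difference between the models was divided by the root of the summed squared standard errors and compared with the t distribution (degrees of freedom of both fits added), which treats both tables as independent. The fits were tested on simulated data.

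The members and lists were chosen with earlier results of these data known. Every member is accounted for, and per-rat values are given for DEGs of either model and for Hk1, Pgk1, Ldha, Ldhb and Pkm. Those of Tpi1, Pfkfb3, Pdk1, Pdk2, Pdk4, Slc2a1 and Slc5a2 were added after their values were seen. Some other genes of the pathway are not reported here by name. On GRCr8, 10 members overlap another protein-coding gene (Hk3, Pfkm, Aldoa, Tpi1, Eno3, Pklr, Pc, Pfkfb1, Pfkfb2 and Slc5a2), and counting is not stated to use strand, so their values may hold reads of the neighbour. Promoters are RefSeq sequences on GRCr8.

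Tried as alternatives were median-of-ratios scaling, quantile normalization, equal sums, pseudocounts of 1 and 0.01, a filter at 1 FPKM or none, eBayes without the trend, a replicate block, and leaving out each rat. Leaving out control rat 1 and adenine rat 1 together was added after seeing the data. In summed adipocyte markers only adenine rat 1 stood apart from its group. Control rat 1 (47.4 FPKM) was close to control rats 2 and 3 (45.6 and 43.4 FPKM). That fit rests on control rats 2 and 3 alone as the reference, so its changes cannot be assigned to adipocyte RNA.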

Additional observations from a re-analysis of the deposited data

Results flagged for a closer look

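The log2 fold changes of 10 members differed between the adenine and UUO models by the test of the difference itself (adenine minus UUO, 3 rats a group). The differences were 3.90 for Pck1, 2.45 for Hk3, 1.93 for Slc2a1, 1.49 for Hk2, 1.3 for Pkm, 1.18 for Pdk1, 1.15 for Tpi1, -1.34 for Fbp2, -1.37 for Pklr and -1.50 for Eno3. Pck1, Hk3, Slc2a1, Pkm and Eno3 were called in all 22 settings, including each fit that left out 1 rat. Hk2 was called in 14, Pklr in 15, Pdk1 in 12 and Tpi1 in 7 of 22 settings, and Fbp2 in 6 of 21. These 5 genes each lost the call without control rat 2, control rat 3 or adenine rat 1, with adjusted p between 0.0501 and 0.103. At least 1 of them lost it without each of the other rats but UUO rat 1, and without UUO rat 2 the difference of Tpi1 was 0.67.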

How the results depend on the processing

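No call of 22 of 42 tested members with adenine, or of 22 of 38 after UUO, was gained, lost or reversed in any alternative that could be fitted, although the sign of members that were not called could turn. With median-of-ratios scaling 14 members fell in the adenine model and 6 rose in the UUO model, where 2 were upregulated DEGs. The median of the glycolytic enzymes was then 0.16 and -0.35, and that of the gluconeogenic enzymes in the UUO model -3.44. With quantile normalization 3 members were upregulated DEGs in the adenine and 1 in the UUO model, 7 rose in the UUO model, and the UUO medians were -0.091 and -3.18. With equal sums the glycolytic medians were 0.72 and 0.48. A pseudocount of 1 left 2 upregulated DEGs in the UUO model. Of the members called in the UUO model, Hk1 (-0.25), Pfkl (-0.19) and Pkm (-0.16) turned in sign with median-of-ratios scaling. So did Aldoa (-0.35), Eno3 (-0.15), Pfkfb2 (-0.39), Pdk1 (-0.40), Pdk4 (-0.35) and Slc5a2 (-0.55), which were not called on the deposited scale. Pfkfb2 was called as fallen with quantile normalization (-0.59, adjusted p = 0.0226). In the adenine model the uncalled Pgam1 (-0.084), Pck2 (-0.14) and Pfkfb2 (-0.092) turned with median-of-ratios scaling. The cause was not tested. Without a filter 6 differences between the models were called. Among these single alternatives, shares of all entries were counted only for rises and falls under median of ratios.

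When each rat was left out in turn, rises ranged from 14 to 16 and falls from 8 to 14 in the adenine model, and from 10 to 13 and 15 to 17 in the UUO model. The shares of all entries called in these fits were not counted. Upregulated DEGs ranged from 5 to 6 and from 3 to 5, and downregulated DEGs from 5 to 8 and at 7. The glycolytic medians ranged from 0.36 to 0.56 and from 0.21 to 0.32, and the gluconeogenic medians from -2.11 to -0.37 and from -3.03 to -2.72. Differences between the models ranged from 6 to 10. Leaving out control rat 1 and adenine rat 1, chosen after seeing the data, gave a gluconeogenic median of -0.017 in the adenine model.

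The labels state no pairing of rats by replicate number. Deviations of rats with the same number correlated at -0.077, -0.123 and -0.049 in the adenine and at 0.050, 0.105 and 0.059 in the UUO model, where every rat correlated best with its own number, a hint from the data and not from the design. With the replicate number as a block, Pfkfb1 was also called in the adenine model (2.02, adjusted p = 0.0310), and in the UUO model Eno3 was gained (0.44, adjusted p = 0.0389) and Hk1 lost (0.35, adjusted p = 0.0564). The depth of the libraries is unknown, so low genes such as Fbp2, Aldoc and Slc2a3 have no detection limit.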

Other observations

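Some other genes of sugar handling reached the fold threshold of a DEG in 1 model. In the adenine model the carrier Slc2a6 rose (3.45), and the pyruvate carrier subunit Mpc1 (-2.09), the cotransporter Slc5a10 (-3.29) and the tubule transcription factor Hnf4a (-2.42) fell. In the UUO model Akr1b1, the aldose reductase that makes sorbitol, rose (2.20), and Sord, which oxidizes sorbitol (-2.26), and the glycerol phosphate dehydrogenase Gpd1 (-2.27) fell. All of these were called the same way under every scaling. By the test of the difference, the change was larger in the adenine model for Slc2a6 (adenine minus UUO 1.84, adjusted p = 0.00331), Slc5a10 fell by more in the adenine model (difference -1.46, adjusted p = 0.0300), and the other 5 were not called.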
